A study of Mus musculus with 112 samples.

Results

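Hearts of DBA/2J mice on the control diet were compared with hearts of the other inbred strains on the same diet, to find the genes in which the DBA/2J heart stood apart. The 8 control arrays of DBA/2J, of 112 arrays in the series, were set against the mean of the 5 group means of 129S1/SvImJ, Balbc/J, C57BL6/J, C3H/HeJ and CBA/J, with 8 control arrays each (40 in all). Arrays were chosen by their titles, so no measured value decided which were used, and those of the hybrid B6C3F1/J were left out. Each array held the heart RNA of 1 male mouse, labeled with biotin from total RNA and read on a mouse gene array. The mice were housed singly on a purified control diet, of which they ate 84 kcal per week at first. From 8 weeks of age control mice stayed on it, caloric restricted (CR) mice received less food, and the fasted animals were killed at 22 weeks. Balbc/J mice were fed more than the other strains in both arms, and the CR food of 129S1/SvImJ and C57BL6/J was cut again partway through, so that strain and food amount cannot be told apart for Balbc/J in both diets and for the other two in CR hearts. Each strain is 1 inbred line from 1 supplier, so a difference between strains carries everything that is fixed in that line.

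An inbred strain carries the same allele on both copies of nearly every gene, and strains differ from one another at many genes at once. DBA/2J takes its letters from the dilute, brown and non-agouti alleles that color its coat. The strain is known for pigmentary glaucoma, for early loss of hearing, for calcification of the heart muscle and for a severe course of several inherited muscle and heart diseases.

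The values are log2 signals, so that a difference of 1 is a 2-fold difference in signal on this scale, and signals of dim genes understate it. In a bulk heart sample, fewer cells of a type and less RNA per cell cannot be told apart. An array correlated with the mean of the rest of its group at a median r of 0.994, and DBA/2J control arrays ranged from 0.963 (replicate 5) to 0.995. Markers of ventricular cardiomyocytes, the bulk of a heart sample, had mean log2 signals of 11 to 11.8 on the DBA/2J arrays, against 9.46 to 11.9 on the 40 other arrays. Markers of atrial cardiomyocytes spread widely in both sets, from 6.51 to 10.5 in DBA/2J and from 6.35 to 10.8 in the other strains. DBA/2J control replicate 5 carried a lymphoid signal: its mean over 7 thymocyte markers was 7.92, against 3.95 to 4.23 on the other 7 DBA/2J arrays, and its mean over 10 T and B lymphocyte markers was 7.68, against 4.61 to 4.92. Balbc/J control replicate 7 was the only other array of that kind, with 6.94 and 7.02 for these lists. None of the 19 marker list means passed between DBA/2J and the other strains (exact permutation test over all choices of 8 among 48 arrays, 2-sided, Benjamini-Hochberg adjusted, 0 at an unadjusted p under 0.05). The lowest p was that of lymphatic endothelial cells (p = 0.0664, adjusted p = 0.546, exact permutation test, higher by 0.11 in DBA/2J). The spread in this test also holds the differences among the other strains, so a difference of DBA/2J can go unseen. The test was repeated without the control arrays DBA/2J replicate 5, CBA/J replicate 1, Balbc/J replicate 7 and C3H/HeJ replicate 6. These 4 arrays, said below to stand apart, had the lowest r of their own groups (0.963, 0.894, 0.974 and 0.985). C57BL6/J arrays with an r as low as 0.98 were kept. In the repeated test the p was 0.0387 for endothelial and 0.0391 for lymphatic endothelial cells (adjusted p = 0.3715 each, exact permutation test).

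In DBA/2J control hearts 1385 of 19938 genes differed from the mean of the other strains, or 6.95% (limma, Benjamini-Hochberg adjusted p under 0.05). Of these, 798 were higher (4% of all genes) and 587 lower (2.94%). With each array centered on its median the split turned to 562 higher and 719 lower, so the balance of directions depends on the scaling, which moved the median difference of all genes from 0.000234 to -0.03. Most differences were small. The median size among called genes was 0.34 on the log2 scale, 33 were over 2-fold higher and 18 over 2-fold lower. The same contrast made for each other strain in turn called 3221 genes in 129S1/SvImJ, 2310 in Balbc/J, 7403 in C57BL6/J, 856 in C3H/HeJ and 3971 in CBA/J, from fits that share all 48 arrays. Marker means of several cell types also differed between DBA/2J and C57BL6/J samples. Mean log2 signals (± SD, n = 8) of atrial cardiomyocyte markers were 7.56 ± 1.648 in DBA/2J and 9.50 ± 1.414 in C57BL6/J. They were 7.16 ± 0.7114 and 8.49 ± 1.045 for white adipocytes, and 7.38 ± 0.6438 and 8.88 ± 1.03 for brown adipocytes. For ventricular cardiomyocytes they were 11.61 ± 0.2711 and 11.04 ± 0.6826. Neither these differences nor their part in the counts for C57BL6/J was tested.

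Set against 1 strain at a time, DBA/2J control hearts differed in 5558 genes from C57BL6/J (27.9%), in 2318 from CBA/J (11.6%), in 2152 from 129S1/SvImJ (10.8%), in 1127 from Balbc/J (5.65%) and in 1007 from C3H/HeJ (5.05%). A call against the mean of 5 strains is therefore not a call against each. Of the 1385 called genes, 668 passed against at most 2 strains and 634 against 3 or 4. Only 83 passed against all 5 with a single direction, and these are called set apart here. They comprised 57 higher genes (0.286% of all genes) and 26 lower genes (0.13%). Among the 206 genes that passed against 4 strains, the strain that did not pass was Balbc/J for 68, CBA/J for 44, C57BL6/J for 41, 129S1/SvImJ for 35 and C3H/HeJ for 18. In 12 genes all 8 DBA/2J arrays lay above all 40 other arrays (0.0602% of genes), and in 7 genes all lay below (0.0351%). Such separation was found for each other strain too. The counts above and below were 29 and 32 for 129S1/SvImJ, 12 and 5 for Balbc/J and 24 and 18 for C57BL6/J. For C3H/HeJ they were 15 and 1, and for CBA/J 14 and 4.

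**Figure D1:**
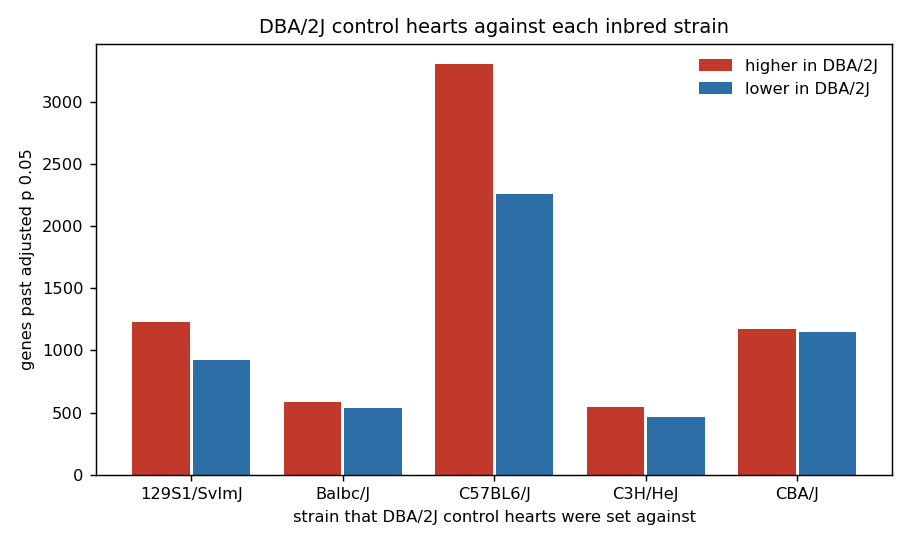
Number of genes past an adjusted p of 0.05 (vertical axis) when DBA/2J control hearts were set against each other inbred strain (horizontal axis), with genes higher in DBA/2J in red and lower in blue. The bars for C57BL6/J, 3298 higher and 2260 lower, are the tallest, and those for C3H/HeJ, 544 and 463, the shortest. Means of atrial and adipocyte markers were also higher in C57BL6/J than in DBA/2J, which was not tested.

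The strongest rises of DBA/2J hearts were of genes near the floor of the array in some or all other strains. AI506816 is an expressed sequence without a known role, named by the platform annotation, and the genomic place of its probe set was not checked, so that its identity is uncertain. It had log2 signals of 8.57 to 9.81 on the DBA/2J arrays (median 9.24), against 1.96 to 7.04 on the others (median 6.13). No array of another strain reached the DBA/2J range, but the other strains differed widely among themselves, from a mean of 2.45 in 129S1/SvImJ to 6.78 in C3H/HeJ. The difference was 4.18 ± 0.146 (SE), or 18.2-fold (limma, adjusted p = 9.79e-28). Mcpt2 encodes a chymase of mast cells and has close relatives in the genome, whose signal the probes may share. It lay between 5.65 and 7.63 in DBA/2J (median 6.86), against 2.18 to 4.18 in the other strains (median 2.55), a difference of 4.03 ± 0.159 or 16.4-fold (limma, adjusted p = 1.63e-25). All 5 other strains had low means, of 2.43 to 2.87.

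Stab2 encodes stabilin-2, a scavenger receptor for hyaluronan that is best known from the sinusoidal endothelium of liver, spleen and lymph node. Its log2 signals were 7.37 to 8.43 in DBA/2J (median 7.87), against 4.66 to 5.32 in the other strains (median 5.02). The gap between the groups was wider than either range, and the difference of 2.87 ± 0.0744 or 7.29-fold had the smallest adjusted p of the genes named here (limma, 3.05e-33). Mrap2, an accessory protein of melanocortin receptors, was also clear of the other arrays, at 5.89 to 7.26 (median 6.42) in DBA/2J against 3.71 to 4.54 (median 4.19), with a difference of 2.29 ± 0.0957. Npl, a lyase that breaks down sialic acid, lay at 7.07 to 8.06 (median 7.27) in DBA/2J and at 5.11 to 6.26 (median 5.62) in the other strains, a difference of 1.70 ± 0.0909. Gpr75, a G protein-coupled receptor, lay at 6.47 to 7.57 (median 7.30) in DBA/2J and at 4.87 to 5.86 (median 5.49) elsewhere, a difference of 1.73 ± 0.0839. The lowest DBA/2J value of Gpr75 and the highest of Npl both belonged to replicate 5, and neither overlapped the other strains.

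Further genes with a large rise were of iron, interferon, centrosome and detoxification biology. Hamp2, a paralog of the iron hormone hepcidin, had log2 signals of 7.16 to 8.32 in DBA/2J (median 7.58), against 5.54 to 7.73 in the other strains (median 6.03), a difference of 1.58 ± 0.139 with overlapping ranges. Sfi1, a centrin-binding protein of the centrosome, was free of overlap, at 7.75 to 8.42 in DBA/2J (median 7.96) and 5.92 to 7.11 in the other strains (median 6.59), a difference of 1.42 ± 0.0666. Cyp2b10, a cytochrome P450 that is best known as a drug-induced liver enzyme, varied between mice in all groups, from 5.89 to 7.39 in DBA/2J (median 6.53) and from 4.06 to 7.28 in the others (median 5.27). Its difference was 1.33 ± 0.192 (limma, adjusted p = 1.72e-06). Rnase2a, of the family of eosinophil ribonucleases whose members resemble each other closely, was dim throughout, at 3.90 to 4.70 in DBA/2J (median 4.37) and 2.30 to 4.09 in the others (median 3.15), a difference of 1.21 ± 0.138.

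Among the genes set apart, predicted genes aside, the largest fall was that of Tfpi. It encodes the inhibitor of the tissue factor pathway, a brake on blood clotting made by endothelial cells. It had log2 signals of 7.69 to 8.75 in DBA/2J (median 7.96), against 8.96 to 10.05 in the other strains (median 9.46). All 8 DBA/2J arrays lay below all 40 others, and the difference was -1.48 ± 0.0900 or 2.80-fold (limma, adjusted p = 4.26e-18). The part of strain variants under the probes was not tested for Tfpi or for the other genes set apart. Creg1, a secreted and lysosomal glycoprotein, lay at 8.49 to 9.03 in DBA/2J (median 8.88) and at 9.42 to 10.59 in the other strains (median 10.19), again without overlap, with a difference of -1.34 ± 0.0685. Mboat2, an acyltransferase of membrane phospholipids, lay at 5.69 to 6.36 (median 5.87) in DBA/2J and 6.10 to 7.84 (median 7.17) elsewhere, a difference of -1.23 ± 0.0808 in which Balbc/J came nearest to DBA/2J with a mean of 6.48.

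The zinc finger genes Zfp975 and Zfp277 fell by 1.41 and 1.22 on the log2 scale, and for Zfp277 the DBA/2J arrays (5.48 to 5.93, median 5.74) did not reach the others (6.52 to 7.71, median 6.95). Rps2, a protein of the small ribosomal subunit, was one of the brightest genes that differed, at 10.67 to 11.09 (median 10.76) in DBA/2J and 11.30 to 11.98 (median 11.64) in the other strains, with no overlap and a difference of -0.84 ± 0.0467 (limma, adjusted p = 1.14e-19). Ribosomal protein genes have many processed copies in the genome, so its signal may hold more than 1 locus. The other falls among the 12 were between -0.87 and -0.76. They were of Actr6, an actin-related protein of a chromatin remodeling complex, Acyp2, a muscle acylphosphatase, Tent5a, a noncanonical poly(A) polymerase, Ttll7, a ligase that adds glutamate to tubulin, Dglucy, a D-glutamate cyclase, and Plekhh2. In each of these 6 genes some arrays of other strains reached into the DBA/2J range.

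**Figure D2:**
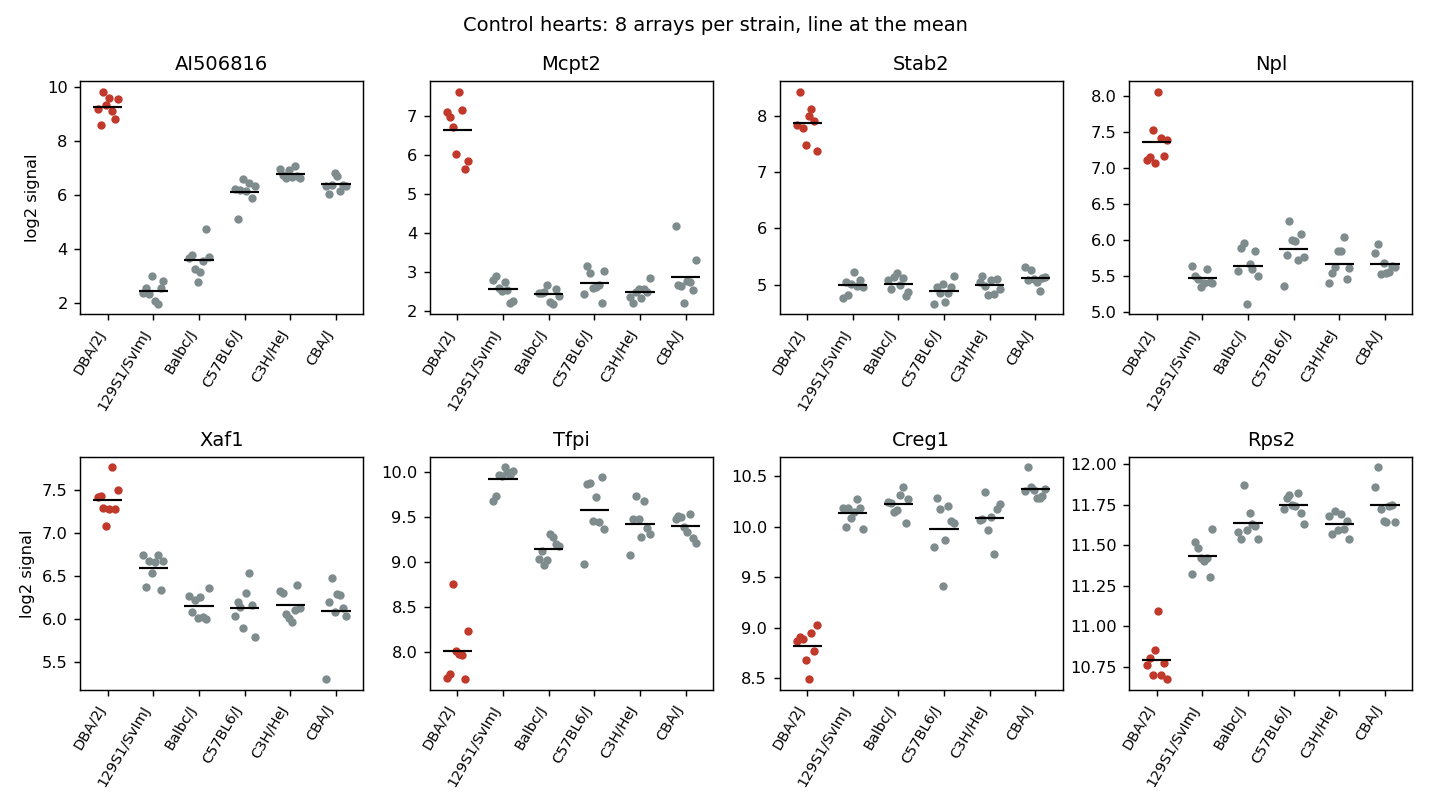
Log2 signal (vertical axis) of 8 genes set apart in DBA/2J, by strain (horizontal axis), with 1 point for each control array, DBA/2J in red, the other strains in grey and a line at each group mean. The DBA/2J points do not overlap those of any other strain in the 8 panels, while AI506816 also separates the other strains, with a mean of 2.45 in 129S1/SvImJ and of 6.78 in C3H/HeJ.

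The same strain difference was then measured in CR hearts, which are other mice and share no array with the control hearts. A strain variant under the probes would be present in both diets, and its part was not tested. The DBA/2J CR group had 7 arrays. The study used 7 of these hearts without naming them, and replicate 7 was dropped here because it correlated with the mean of the rest of its group at r = 0.262, against 0.98 to 0.994 for the others. In this contrast 2811 genes passed (14.1%), 1511 higher (7.58%) and 1300 lower (6.52%) in DBA/2J. Of the genes called in control hearts, 1035 passed again with the same sign, which is 74.7% of the control calls and 36.8% of the CR calls, and 1 passed with the opposite sign. Of the 83 genes set apart, 82 passed again with the same sign. With replicate 7 kept, these counts were 686 and 58. The exception among the 83 was Lrrc28, whose difference was 0.06 in CR hearts (limma, adjusted p = 0.63) and 0.36 ± 0.0616 in control hearts. Of the genes described above, Mcpt2 differed by 4.30 in CR hearts, AI506816 by 3.97, Stab2 by 2.62, Mrap2 by 2.82, Npl by 1.99, Tfpi by -1.78, Creg1 by -1.36 and Rps2 by -0.82. Tent5a differed by -0.48 in CR and by -0.86 in control hearts, a change that did not pass (adjusted p = 1, limma).

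**Figure D3:**
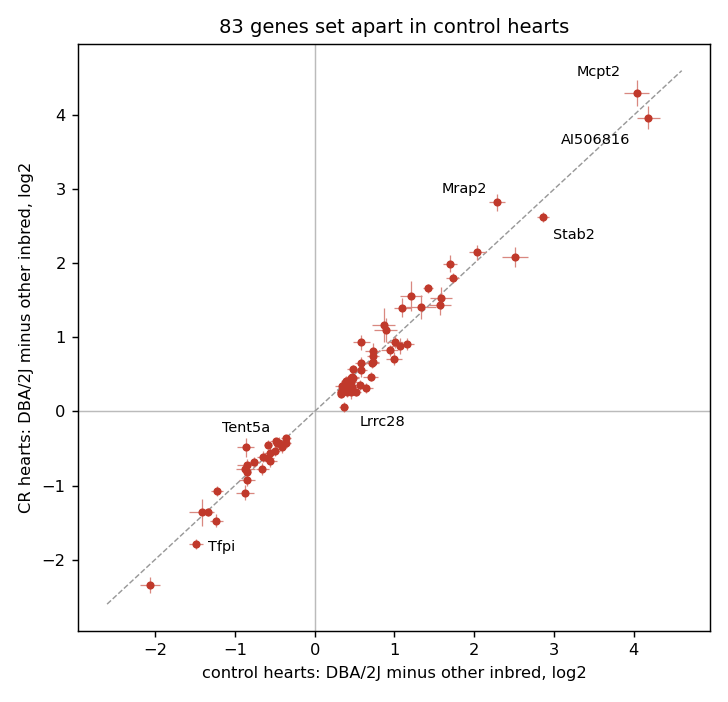
Difference between DBA/2J and the mean of the other 5 inbred strains on the log2 scale in control hearts (horizontal axis) and in CR hearts (vertical axis) for the 83 genes set apart in control hearts, with bars of 1 SE and a dashed line of equality. All 83 points have the same sign in both diets, and Lrrc28, at 0.06 in CR hearts, lies closest to 0.

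Immune genes were among the groups with the most rises, counted against the 4% of all genes that were higher in DBA/2J. Of 12 MHC class I genes 4 rose, and the list median was 0.17, against 0.000234 over all genes. Without replicate 5, the array with the lymphoid signal, 3 rose and the list median was 0.13. B2m, the light chain of every class I molecule, had log2 signals of 11.69 to 12.30 in DBA/2J (median 11.96), against 10.90 to 12.31 in the other strains (median 11.51), a difference of 0.43 ± 0.0820. H2-Q4 lay at 7.33 to 8.31 (median 7.95) in DBA/2J and at 6.44 to 8.30 (median 7.29) in the others, a difference of 0.57 ± 0.114. For both genes the ranges overlapped, and C57BL6/J, at means of 11.96 and 7.85, was the strain at the DBA/2J level. The calls of H2-M3 (0.24) and H2-T24 (0.33) ended when single arrays were left out, with adjusted p between 0.0574 and 0.104 for H2-M3 without DBA/2J control replicate 5, 6 or 7 and between 0.0601 and 0.16 for H2-T24 without replicate 1, 2, 6, 7 or 8 (limma). H2 genes resemble one another and vary in sequence between strains, so that signals of single class I genes are uncertain.

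Of 10 MHC class II genes 1 rose, H2-Ea, with a difference of 2.57 ± 0.2 (limma, adjusted p = 4.54e-14). H2-Ea encodes the alpha chain of the class II molecule E, and mice of the b haplotype, such as C57BL6/J and 129S1/SvImJ, are known not to make it. Its log2 signals were 8.33 to 10.88 in DBA/2J (median 8.79), and the group means were 4.57 in 129S1/SvImJ, 4.55 in C57BL6/J, 6.90 in CBA/J, 7.61 in C3H/HeJ and 8.64 in Balbc/J. DBA/2J and Balbc/J thus shared the high level, and the highest DBA/2J value was that of replicate 5, the array with the lymphoid signal. Without that array H2-Ea still passed, and the list median turned from 0.10 to -0.03.

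Of 23 genes of the interferon response 4 rose, with a list median of 0.17 (3 and 0.14 without replicate 5). Xaf1, an interferon-induced partner of a caspase inhibitor, had log2 signals of 7.08 to 7.77 in DBA/2J (median 7.36), against 5.29 to 6.75 in the other strains (median 6.21), without overlap and with a difference of 1.16 ± 0.0856. Ifi202b, a member of a family of interferon-inducible DNA-binding proteins with near copies, lay at 4.74 to 5.58 (median 5.3) in DBA/2J and at 2.21 to 5.37 (median 3.63) in the others, where CBA/J came nearest with a mean of 4.54. Its difference was 1.57 ± 0.136. Oas2, which makes the 2-5A messenger that activates RNase L, differed by 0.50 ± 0.124, but its call ended without replicate 6 (adjusted p = 0.054, limma) and without 129S1/SvImJ (0.0839). Oas1b (0.27) lost its call without replicate 1, 5, 6 or 8 (adjusted p between 0.0599 and 0.118) and, at 0.03, did not pass in CR hearts. In CR hearts the list median was -0.0025, while Xaf1 and Ifi202b again differed by 0.91 and 1.44.

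The 10 interferon-inducible GTPases, which act against intracellular pathogens, moved in both directions. Gbp5 and Gbp7 rose, by 0.41 and 0.37, and Gbp2b, Gbp9 and Iigp1 fell, against 2.94% of all genes lower. Gbp2b had log2 signals of 4.34 to 4.87 in DBA/2J (median 4.69), against 4.15 to 6.46 in the other strains (median 5.74), with C57BL6/J (4.59) and CBA/J (4.55) as low as DBA/2J. Gbp9 lay at 5.58 to 7.20 in DBA/2J (median 5.76), where replicate 5 was the highest, and at 4.94 to 7.58 in the others (median 6.62), a difference of -0.72 ± 0.138. Genes of this family share sequence, and the call of Gbp7 ended without replicate 6 (adjusted p = 0.0698, limma) and without CBA/J (0.075). Neither Gbp5 nor Gbp7 passed in CR hearts, with differences of 0.14 and 0.15.

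Of 19 complement genes 5 rose, with a list median of 0.33 in CR and 0.19 in control hearts. Without DBA/2J control replicate 5, 5 rose as well and the control median was 0.15. C3ar1, the receptor of the C3a fragment on myeloid cells, had log2 signals of 7.46 to 8.12 in DBA/2J (median 7.85), against 6.68 to 8.18 in the others (median 7.23), a difference of 0.53 ± 0.105. C6, a part of the membrane attack complex, was set apart from every strain by a small step, at 4.06 to 4.61 (median 4.35) in DBA/2J and 3.63 to 4.70 (median 4.00) elsewhere, a difference of 0.34 ± 0.0848. C7 and C4b differed by 0.83 and 0.85, and both depended on the strains taken as comparison, since without CBA/J their adjusted p was 0.119 and 0.077, and without C3H/HeJ that of C7 was 0.0546 (limma). Cd59a, which guards host cells against that complex, differed by 0.26. Macrophage marker means were 6.97 ± 0.165 in DBA/2J (SD, n = 8) and 6.83 over the other strains, with 1 of 12 markers, Cd68, higher by 0.47. Their part in the complement calls was not tested.

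Of 20 chaperone genes of the endoplasmic reticulum, which fold secreted and membrane proteins, 6 rose (3 without replicate 5), and 17 had a positive difference, with a list median of 0.13 in CR and 0.15 in control hearts. Calr, calreticulin, had log2 signals of 10.05 to 10.39 in DBA/2J (median 10.27), against 9.51 to 10.39 in the others (median 9.89), a difference of 0.36 ± 0.0541. Dnajb11, a partner of the chaperone BiP, was set apart from all 5 strains, at 7.20 to 7.92 (median 7.45) in DBA/2J and 6.50 to 7.45 (median 7.04) elsewhere, a difference of 0.45 ± 0.0676. Pdia3, Sdf2l1, Creld2 and the transcription factor Xbp1 differed by 0.38, 0.41, 0.34 and 0.18. Without replicate 5 the adjusted p was 0.0526 for Pdia3 and 0.0766 for Sdf2l1 (limma), while the list median was 0.13. Pdia3 also lost its call without replicate 3 (0.0532), and Sdf2l1 without replicate 2, 3, 4 or 6 (0.07 to 0.125). Of 20 heat shock chaperones 1 rose (5%, against 4% of all genes higher), Hspa2 (0.26), a form best known from testis. Its call ended without replicate 1 (adjusted p = 0.0859, limma) and without replicate 2 (0.058).

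Genes of protein synthesis and breakdown had more falls than rises. Of 24 cytosolic ribosomal protein genes 6 fell and 2 rose (33.3% called, against 6.95% of all genes), with a list median of -0.15 in CR and -0.14 in control hearts. Besides Rps2, Rpl7 had log2 signals of 8.44 to 9.24 in DBA/2J (median 8.77), against 8.69 to 10.15 in the others (median 9.27), and Rpl24 and Rpl13 differed by -0.39 and -0.34. Rpl28 and Rpl27 were the rises. Of the 4 probe sets of Rpl7, the 3 of Rpl24 and the 9 of Rpl13 the brightest was kept. The genomic places of those kept were not checked, so these signals may come from other loci. The call of Rpl13 ended when C57BL6/J was left out (adjusted p = 0.14, limma). Of 30 proteasome genes (16.7% called) 4 fell, Psmb6, Psmc3, Psmc6 and Psmc2, and the immunoproteasome subunit Psmb10 rose by 0.40. Psmb6, a catalytic subunit, was set apart from all strains, at 8.01 to 8.67 (median 8.39) in DBA/2J and 8.22 to 9.29 (median 8.88) elsewhere, a difference of -0.56 ± 0.0718. Psmb10 lost its call without 129S1/SvImJ (adjusted p = 0.0519) or C57BL6/J (0.0549). Without replicate 5 the proteasome list had 3 falls and 2 rises, and its median moved from -0.05 to -0.02. The ribosomal list then had 7 falls and 1 rise.

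**Figure D4:**
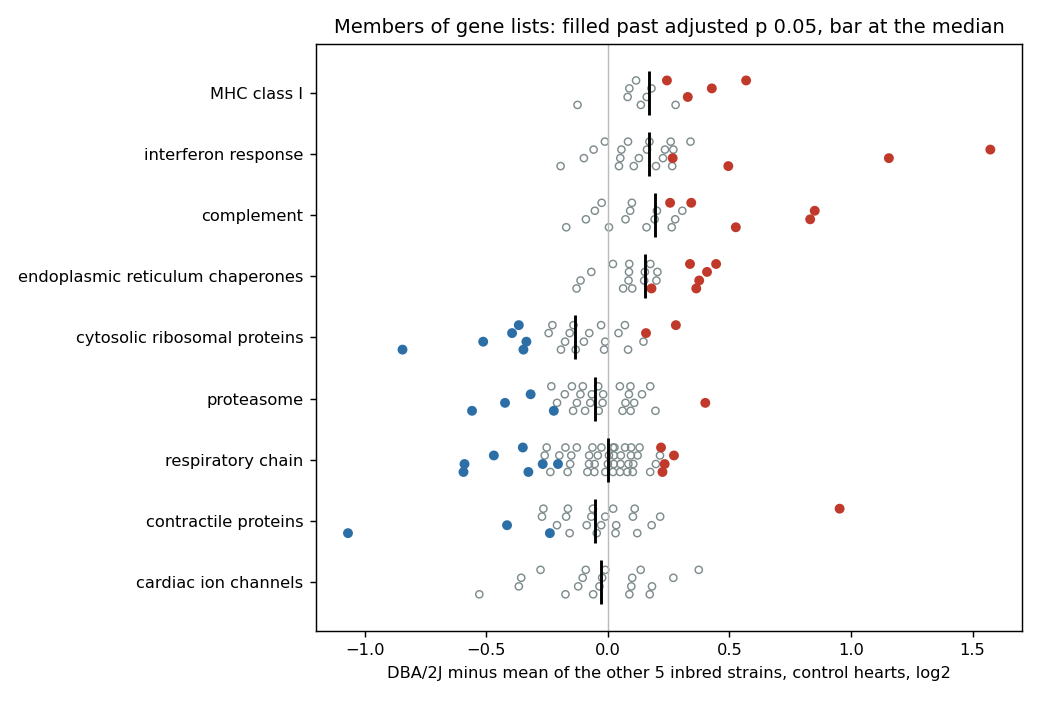
Difference between DBA/2J and the mean of the other 5 inbred strains in control hearts on the log2 scale (horizontal axis) for each measured gene of 9 lists (vertical axis), with genes past an adjusted p of 0.05 filled in red (higher) or blue (lower), the rest open, and a bar at each list median. Medians lie at 0.15 to 0.19 for the 4 immune and chaperone lists at the top and at -0.14 for the ribosomal proteins.

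Among contractile protein genes the falls were of troponins and of a kinase that binds one. Of 24 genes 3 fell and 1 rose (16.7% called, against 6.95% of all genes). Tnni3k, that kinase of cardiomyocytes, is known to carry a low-expressing allele in DBA/2J. It had log2 signals of 7.10 to 8.02 in DBA/2J (median 7.52), against 7.04 to 9.69 in the others (median 8.92). The low level was shared with Balbc/J (mean 7.33) and C3H/HeJ (7.80), and the other 3 strains lay at 9.15 to 9.39, so that the difference of -1.07 ± 0.109 (limma, adjusted p = 3.29e-10) was between groups of strains. Tnnt2, cardiac troponin T, differed by -0.41 ± 0.0589, with 12.55 to 13.04 in DBA/2J (median 12.91) and 12.61 to 13.52 in the others (median 13.34). The third fall, of the fetal troponin Tnni1 (-0.24), ended without replicate 1, 5, 6 or 8 (adjusted p between 0.064 and 0.118, limma). None of 20 cardiac ion channel genes passed in the limma fit, without moderation or in the methods' t-test, and 6 had an unadjusted p under 0.05. Without replicate 5, 1 of them rose, and without the 4 control arrays that stood apart (DBA/2J replicate 5, CBA/J replicate 1, Balbc/J replicate 7 and C3H/HeJ replicate 6) 2 rose and 2 fell.

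Of 19 genes of the cardiac stress and fetal programme 3 rose (15.8% called, against 6.95% of all genes). Acta1, the skeletal form of actin that is made in fetal and overloaded hearts, ranged widely, from 9.84 to 11.61 in DBA/2J (median 11.39) and from 6.98 to 12.58 in the others (median 10.13). Balbc/J had a higher mean (12.1) than DBA/2J, and without C57BL6/J, whose mean was 7.99, the call was lost (adjusted p = 0.379, limma), as it was without C3H/HeJ (0.0704). Hopx (0.26) lost its call without Balbc/J (adjusted p = 0.47), C57BL6/J (0.206), replicate 7 (0.0521) or replicate 8 (0.0578), and Ankrd1 (0.37) lost it without any single DBA/2J array except replicate 1, with adjusted p between 0.0526 and 0.1. Of 21 genes of calcium handling 3 rose (14.3% called). Besides Calr they were the calcium stores of the sarcoplasmic reticulum, with a difference of 0.45 ± 0.0894 for the cardiac form Casq2 and of 0.60 ± 0.122 for the skeletal form Casq1. Casq2 lay at 10.45 to 11.17 in DBA/2J (median 11), where replicate 5 was the lowest, and at 9.75 to 10.97 in the others (median 10.46).

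Of 28 interstitial matrix genes 1 passed (3.57%, against 6.95% of all genes), Sparc, a collagen-binding protein (0.26 ± 0.0596), which rose, and of 19 TGF-beta pathway genes 2 rose (10.5%). Tgfb1, the ligand, had log2 signals of 7.48 to 8.06 in DBA/2J (median 7.66), against 6.71 to 7.80 in the others (median 7.38), a difference of 0.30 ± 0.0639. The call of Smad4 (0.20) was lost without any single DBA/2J array, with adjusted p between 0.0524 and 0.116 (limma). None of 15 basement membrane genes passed in limma or in the methods' t-test (1 at an unadjusted p under 0.05), and 1 rose without the 4 control arrays that stood apart. Of 14 genes of calcification and phosphate 1 fell (7.14% called), Fetub (-0.32), which lost its call without C3H/HeJ (adjusted p = 0.0583). Abcc6, the transporter whose alleles underlie calcification of the heart in several strains, was at 5.3 to 5.69 in DBA/2J (median 5.45), against 4.63 to 5.91 in the others (median 5.4), a difference of 0.07 ± 0.0770 (adjusted p = 0.687, limma).

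Energy metabolism was mixed. Calls made up 21.6% of the respiratory chain list and 16.7% of fatty acid oxidation, against 6.95% of all genes. They made up 7.41% of the citric acid cycle and glycolysis list and 6.25% of PPAR-alpha targets. For autophagy and lysosome the share was 4.55%, and for fatty acid and cholesterol synthesis 3.57%. The latter lists were thus near or below the share of all genes. Of 51 respiratory chain genes 7 fell and 4 rose. Ndufa4 and Ndufa1 fell by 0.59 each. Ndufa4 had log2 signals of 10.10 to 10.92 in DBA/2J (median 10.73), against 10.26 to 12.25 in the others (median 11.21), and Balbc/J, at a mean of 10.77, was as low. The cytochrome oxidase subunits Cox7a1 and Cox5b rose by 0.27 and 0.22. Without replicate 5 the list had 7 rises and 2 falls, so its balance rested on that array, whose mean of ventricular markers was the lowest of its group. Of 18 genes of fatty acid oxidation Hadh rose by 0.36 ± 0.0683 and Acadvl and Etfb fell by 0.48 and 0.23, of 16 PPAR-alpha targets Angptl4, an inhibitor of lipoprotein lipase, rose by 0.68 ± 0.166, and of 27 genes of the citric acid cycle and glycolysis 2 fell, the muscle enolase Eno3 by 0.52 and Mdh1 by 0.22. The calls of Etfb and Mdh1 ended without replicate 5 (adjusted p = 0.0598 and 0.145, limma), that of Mdh1 also without replicate 1, 3 or 4 (0.0571 to 0.0788), that of Acadvl without 129S1/SvImJ (0.0528) and that of Cox5b without C57BL6/J (0.069). Of 28 genes of fatty acid and cholesterol synthesis 1 rose, Elovl5 (0.31, adjusted p between 0.0624 and 0.133 without replicate 2, 3, 4, 5, 6 or 8), and of 22 autophagy and lysosome genes 1 fell, Bnip3 (-0.45, adjusted p = 0.0958 without C57BL6/J and 0.0667 without 129S1/SvImJ).

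Iron and haem genes had 3 rises and 3 falls among 26 (23.1% called, against 6.95% of all genes). Alad, an early enzyme of haem synthesis, had log2 signals of 10.34 to 10.97 in DBA/2J (median 10.70), against 8.52 to 10.91 in the others (median 10.32). Its difference of 0.78 ± 0.0774 (limma, adjusted p = 1.44e-10) was larger against C57BL6/J, at a mean of 8.69, than against the other 4 strains, at 9.91 to 10.47. Hjv, the hemojuvelin of skeletal and heart muscle, and Ftl1, the ferritin light chain, were higher by 0.44 and 0.30. Hfe (-0.44), Cp (-0.33) and Urod (-0.21) were lower, and the call of Hfe ended without C57BL6/J (adjusted p = 0.0812, limma), that of Cp without 129S1/SvImJ (0.206) or C57BL6/J (0.0824). Of 27 glutathione and NRF2 genes 3 rose and 4 fell (25.9% called). The transferases Gsta3 and Gstm2 differed by -0.58 and -0.25 and Gstt2 by 0.42, and the call of Gstm2 ended without Balbc/J (adjusted p = 0.233). None of 12 genes of the aryl hydrocarbon receptor pathway and none of 17 circadian clock genes passed in limma or in the methods' t-test (2 and 3 at an unadjusted p under 0.05). Without replicate 5, 1 gene of the aryl hydrocarbon receptor pathway fell, and without the 4 control arrays that stood apart 1 gene of each list fell.

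Of 15 genes known for an allele that DBA/2J carries, in some cases shared with other strains, 2 rose and 2 fell (Tnni3k and Gpnmb). Calls made up 26.7% of this list, against 6.95% of all genes, and the other members did not pass. Glo1, glyoxalase 1, is known to be duplicated in DBA/2J and in some other strains. It had log2 signals of 9.10 to 9.44 in DBA/2J (median 9.31), against 7.95 to 9.41 in the others (median 9.09). Of the 2 probe sets of Glo1 the brighter was kept. Its genomic place was not checked, so the signal may come from another locus. 129S1/SvImJ, C3H/HeJ and CBA/J, at means of 9.16, 9.24 and 9.13, lay at the DBA/2J level and only Balbc/J (8.25) and C57BL6/J (8.52) below it. Myo5a, the motor of pigment granules that carries the dilute allele, was higher by 0.52 ± 0.113, at 6.71 to 7.46 in DBA/2J (median 6.90) and 5.94 to 7.60 in the others (median 6.37). Gpnmb, a glycoprotein of pigment cells and macrophages with a truncating allele in DBA/2J, was lower by 0.51 ± 0.145, at 4.37 to 6.11 (median 4.92) against 4.95 to 7.28 (median 5.43), and its call ended without replicate 1 (adjusted p = 0.102), 4 (0.0629), 7 (0.0634) or 8 (0.08), or without C57BL6/J (0.0872). In CR hearts its difference had the other sign, at 0.54 (adjusted p = 0.0562), and the change between diets of 1.05 did not pass (adjusted p = 0.163, limma).

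The brown gene Tyrp1 differed by -0.15 ± 0.0969 (adjusted p = 0.456, limma), the complement component Hc by -0.17 ± 0.0848 (0.267) and Klrd1, a receptor chain of natural killer cells, by -0.25 ± 0.146 (0.381), with no log2 signal above 5.12 on any array. Ahr, Ltbp4, Anxa6, Cdh23, Fscn2, Eps8 and Tas1r3 differed by at most 0.22 in size. Of 26 pigment and melanosome genes, Kit, Myo5a and Hps3 rose and Dct and Gpnmb fell (19.2% called, against 6.95% of all genes). Kit, the receptor of stem cell factor on melanocytes and mast cells, lay at 5.59 to 6.29 in DBA/2J (median 6.01) and at 5.02 to 5.86 in the others (median 5.47), a difference of 0.51 ± 0.0781.

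The cell cycle list shows how 1 array can shape a group. Of its 23 genes 21 had a positive difference, with a list median of 0.25, yet only Cdk1 rose and Ccnd2 fell (8.7% called, against 6.95% of all genes). Cdk1, the kinase that starts mitosis, had a log2 signal of 8.16 on replicate 5, against 5.4 to 5.90 on the other DBA/2J arrays and 4.74 to 6.48 in the other strains. Without replicate 5 the list median was 0.03, 13 of 23 differences were positive and Cdk1 did not pass (adjusted p = 0.275, limma), nor did it without replicate 2 (0.0599) or 6 (0.0509). The call of Ccnd2 (-0.28) ended as well (0.0571), and without replicate 4, 7 or 8 (0.0653 to 0.0901). In CR hearts the list median was -0.03.

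Between diets, the DBA/2J contrast differed for 2 of 19938 genes (0.01%; limma interaction over 95 arrays, 653 at an unadjusted p under 0.05). Mmp12 encodes the elastase of macrophages and Atp6v0d2 a subunit of the proton pump of osteoclasts and macrophages. In CR hearts Mmp12 had log2 signals of 5.63 to 10.60 in DBA/2J (median 7.67), and in control hearts of 4.99 to 8.44 (median 5.6). In the other strains it lay at 4.28 to 6.28 in control hearts, and their means were 4.61 to 5.28 in CR hearts. The DBA/2J difference was thus 3.17 in CR hearts and 1.19 in control hearts (adjusted p of the change = 0.0399).

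Atp6v0d2 followed the same mice. Its log2 signals were 3.69 to 8.54 in DBA/2J CR hearts (median 6.23) and 3.10 to 6.48 in DBA/2J control hearts (median 3.55), against 2.68 to 4.43 in control hearts of the other strains, and its difference was 2.90 in CR hearts and 0.92 in control hearts (adjusted p of the change = 0.0399). Only replicates 5 and 6 of the DBA/2J control hearts were high, at 8.20 and 8.44 for Mmp12 and 6.19 and 6.48 for Atp6v0d2. The control call of Atp6v0d2 ended without replicate 5 (adjusted p = 0.0777) or 6 (0.0874). Among CR hearts replicates 5 and 8 were as low as most controls, and the SD of Mmp12 was 1.97 in CR and 1.34 in control hearts of DBA/2J, against 0.114 to 0.599 in the groups of the other strains. For Atp6v0d2 it was 1.96 and 1.35, against 0.133 to 0.517. The limma fit takes a common spread for all groups, so the p-values of both changes understate the spread between DBA/2J mice. When DBA/2J CR replicate 7 was kept, neither change passed (adjusted p = 0.195 for Mmp12 and 0.0532 for Atp6v0d2).

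**Figure D5:**
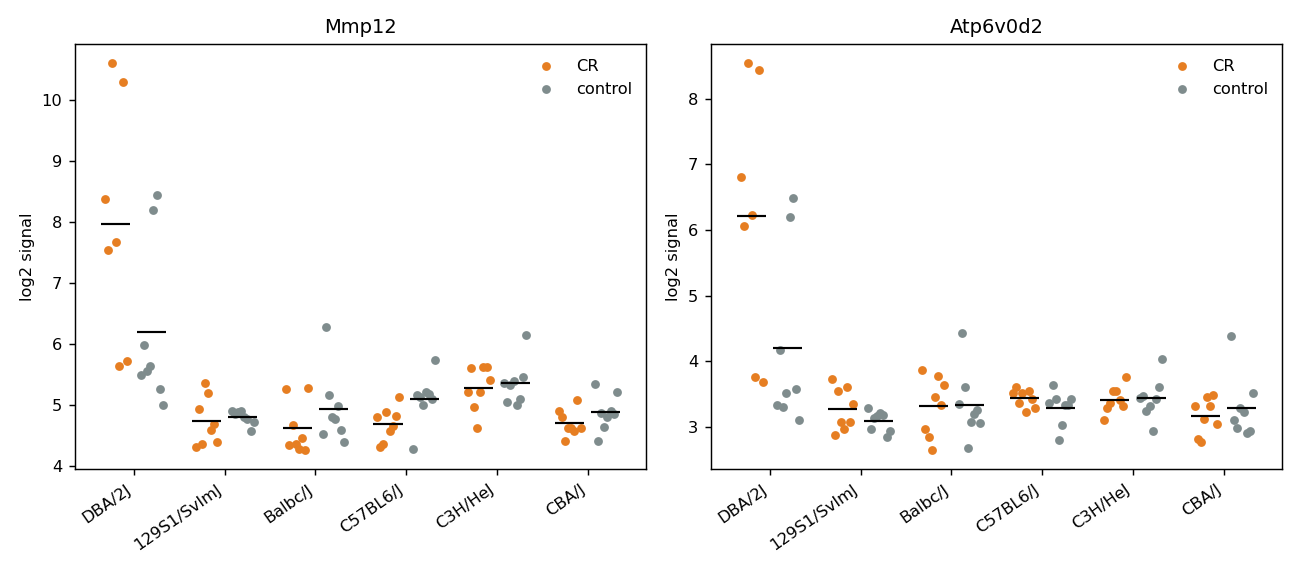
Log2 signal (vertical axis) of Mmp12 and Atp6v0d2 in CR hearts (orange) and control hearts (grey) of 6 inbred strains (horizontal axis), with 1 point for each array and a line at the group mean. DBA/2J CR hearts spread from 5.63 to 10.60 for Mmp12, and 2 DBA/2J control hearts, at 8.20 and 8.44, stand above all other control hearts.

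The spread between DBA/2J mice over all genes lay within that of the other strains. The median SD of a gene over 8 control arrays was 0.187 in DBA/2J, against 0.153 in 129S1/SvImJ, 0.165 in C3H/HeJ, 0.175 in Balbc/J, 0.252 in C57BL6/J and 0.286 in CBA/J, and it was 0.157 in DBA/2J without replicate 5. Called genes lay next to one another more often than tested genes did: 256 of 1381 called genes with a place in the RefSeq gene order (18.5%) and 21 of the 83 genes set apart (25.3%) had a called neighbor, against 13.3% of all genes tested, as a description without a test. The longest runs held 4 genes. Rwdd3, Tlcd4, Alg14 and Cnn3 on chromosome 3 were all higher, by 0.57, 0.86, 0.46 and 0.31, and on chromosome 2 Rin2 and Naa20 were higher and Crnkl1 and Cfap61 lower.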

How the data were processed

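Processed values were taken as deposited. According to the methods, the authors made log2 signals per probe set of the Affymetrix Mouse Gene 1.0 ST array in Affymetrix Expression Console with the RMA method (background correction, quantile normalization across arrays, median polish). Software versions and the genome build of the annotation are not stated in the material used here. Signals ran from 0.463 to 14.2. Arrays carry no read depth, and their number limits the precision.

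Of 35556 probe sets, 21789 carried 1 gene symbol in the platform annotation, 1621 several and 12146 none. Gene identifiers of 21698 matched the RefSeq genes of GRCm38.p6, and 0 symbols were updated. For 999 genes with several probe sets the brightest was kept, which left 19938 genes without a filter. Probe sequences were not used, so the part of strain variants under probes was not tested.

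Genes were fitted with limma 3.58.1 (lmFit, eBayes) in R 4.3.3 with the data.table package (version 1.17.8), with a mean for each group over the 48 inbred control arrays, over 47 CR arrays without DBA/2J CR replicate 7, and over these 95 arrays for the difference between diets. Tests were 2-sided, with Benjamini-Hochberg adjustment over all genes and a threshold of 0.05. Marker list means were tested by exact permutation over all 377348994 choices of 8 of 48 arrays, in place of 100000 random ones. The fit was tested on simulated data. Python 3.11.15, numpy 2.4.6, pandas 2.3.3 and matplotlib 3.10.9 made tables and plots.

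The 30 gene lists, 19 marker lists, tests and rules were chosen with earlier results of these data known. Genes were named by rule: the 12 largest rises and falls among genes set apart (predicted genes aside, 4 higher and 1 lower), up to 4 called members of each list by smallest p, the genes known for a DBA/2J allele, and the called diet differences. Other genes in the text were picked after their values were seen. Alternatives were other normalizations, a filter on dim genes (under log2 5.22), the mean of probe sets, array weights, other variance models, the methods' t-test (Student's, at an unadjusted p under 0.01 and adjusted), a replicate block, all 14 groups in 1 fit, marker means as covariates, and leaving out arrays or strains. Each mouse gave 1 array, and the spread behind each limma p-value is that between mice of a group. The spread in the permutation test and in the methods' t-test also holds the differences among the other strains.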

Additional observations from a re-analysis of the deposited data

Results flagged for a closer look

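By Dixon's test 1 of the 8 DBA/2J control arrays stood far from the rest in 13 of 102 named genes and in 4 of 19 marker means, and it was replicate 5 in all 17 cases. Chance alone flags about 1 in 20 groups. Replicate 5 was the highest array, with its log2 signal against the next one, for Npl (8.06, 7.52), Rps2 (11.09, 10.85), Tgfb1 (8.06, 7.73), H2-Ea (10.88, 9.10), Gbp9 (7.20, 5.90), Cdk1 (8.16, 5.90), and for the marker means of T and B lymphocytes (7.68, 4.92), thymocytes (7.92, 4.23) and natural killer cells (4.56, 3.94). It was the lowest for Gpr75 (6.47, 7.05), Ttll7 (4.63, 5.46), Tnnt2 (12.55, 12.82), Hopx (8.62, 9), Casq2 (10.45, 10.95), Mdh1 (11.77, 12), Psmc3 (7.67, 7.93) and the mean of ventricular cardiomyocyte markers (11, 11.43). The part of the lymphoid signal in these values was not tested.

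The DBA/2J contrast differed between diets for Mmp12, by 1.98 on the log2 scale (CR minus control), and for Atp6v0d2, also by 1.98, in the test of the difference itself (limma interaction, adjusted p = 0.0399 each). The fit assumes a common spread, and DBA/2J mice varied more than those of the other strains in both genes, so both calls are uncertain.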

How the results depend on the processing

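None of the 102 named genes changed sign in a setting if it passed there or in the main contrast. Sign changes of genes that passed in neither were not counted. Of 2538 outcomes 2356 kept their side of the threshold, 180 lost a call and 2 gained one (Klrd1 with marker means as covariates, Eps8 without CBA/J). The main contrast called 1385 genes. Array weights gave 3272 (1981 higher, 1291 lower; 1376 shared with the 1385) and 195 genes set apart. The methods' t-test gave 478 after adjustment (282 higher, 196 lower, all 478 shared), since its pooled spread holds the differences among the other 5 strains, and 1207 at an unadjusted p under 0.01. Centering arrays left 43.9% of calls higher, against 57.6%. Without single DBA/2J replicates 1124 to 1240 genes were called, 629 to 749 higher, 458 to 525 lower and 72 to 81 set apart, with 55.3% to 61.2% of calls higher. Without Balbc/J, C57BL6/J or CBA/J 137, 151 and 172 genes were set apart from the 4 remaining strains, and without CBA/J 1207 were higher. With DBA/2J CR replicate 7 kept, 686 control calls passed again in CR hearts and 0 genes differed between diets, and without the 4 control arrays that stood apart (DBA/2J replicate 5, CBA/J replicate 1, Balbc/J replicate 7 and C3H/HeJ replicate 6) 7 did. Deviations of same-numbered arrays had a median correlation of 0.00297 (range -0.61 to 0.515), against a median of 0.0109 for differently numbered arrays. Whether some same-numbered arrays shared a batch cannot be told from these values. With the number as a replicate block 1349 genes were called, 775 higher and 574 lower, 79 of them set apart. No other count moved by over 1.5 times. Dim genes limit what can be seen, since their signals are near background.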

Other observations

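The following genes were picked after their values were seen. Of 5 mast cell genes looked at beside Mcpt2, 3 were higher in DBA/2J control hearts, against 4% of all genes. Because the genes were picked, that count is a description only, and mast cell content was not tested. Cpa3, the carboxypeptidase of mast cells, differed by 0.79 (limma, adjusted p = 0.029), Mcpt4 by 0.72 (0.008) and Cma1 by 0.39 (0.0078), against 4.03 for Mcpt2. In each of the 3 genes the DBA/2J range lay within that of the other strains, and Tpsb2 (0.08) and Fcer1a (0.14) did not pass. In CR hearts the differences were 1.09, 1.10 and 0.48.

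Outside the gene table, 868 of 13767 probe sets with no symbol or several differed in DBA/2J control hearts (6.3%), 389 higher and 479 lower, and 66 were set apart from all 5 strains. Without the 4 control arrays that stood apart, the genes that differed between diets besides Mmp12 and Atp6v0d2 were Rgs1 (1.31, CR minus control), Itgax (1.07), Adam8 (0.53), Fbln7 (0.46) and Rtn1 (-0.44). Itgax, the integrin of dendritic cells and some macrophages, differed by 1.24 between DBA/2J and the other strains in CR hearts and by 0.27 in control hearts.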
